A study of Mus musculus with 29 samples.

Results

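The comparison covered genistein-exposed mouse uterus on consecutive days of early pregnancy: the 4 arrays titled GD5.5 and GEN against the 4 arrays titled GD4.5 and GEN, chosen by their titles alone, 8 of the 29 arrays of the series. All animals were CD-1 females. GEN females had received 50 mg/kg/day of the soy phytoestrogen genistein on postnatal days 1 to 5, as newborns, and their uteri were taken later, in pregnancy, at gestation day (GD) 5.5 (n = 4) or GD4.5 (n = 4). CON females had received only corn oil on the same postnatal days, and their uteri at GD5.5 (n = 4) and GD4.5 (n = 4) are used here only to set the GEN change beside the same day change without genistein. The labels give the organ as uterus and name no dissected layer or site, so decidua, muscle, blood cells and embryos could all be in a sample. The labels do not say how many animals made a sample or whether samples were separate animals. The p-values below rest on a spread between samples, pooled over the groups of all 29 arrays, which may be technical in part. The study asks how early-life genistein affects implantation, and this comparison follows the first day after attachment in the exposed uterus.

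Decidualization is the conversion of endometrial stromal fibroblasts into large, secretory and often polyploid cells that surround and feed the implanting embryo. In the mouse it starts when the blastocyst attaches to the luminal epithelium, depends on progesterone acting through its receptor, and is carried forward by stromal signals of the BMP and Wnt families. The luminal epithelium meanwhile loses the receptive state, and uterine natural killer cells and new vessels spread through the decidua.

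Each value below is the log2 signal of a gene's brightest probe relative to the 75th percentile of its array, so 0 stands for the 75th percentile and 1 unit for a doubling; levels are compared for a gene across arrays, not between genes. GEN arrays at GD5.5 had 65.5% to 74.0% of spots well above background and a 75th percentile intensity of 742 to 995, against 70.1% to 78.3% and 893 to 985 for GEN arrays at GD4.5. The number of arrays limits the precision: the median standard error of a day change was 0.213 log2 units. Each smooth muscle, stromal and epithelial marker was well above background on at least 1 GEN array of each day. The GEN arrays did not form tight groups. GD4.5 replicates 1 and 2 already had higher levels of decidual genes than replicates 3 and 4, GD5.5 replicate 3 had the lowest levels of its day, GD4.5 replicate 4 was high in immune and estrogen-responsive genes and low in cell cycle genes, and GD4.5 replicate 2 was high in adipocyte genes. Slides held the GEN arrays of the days unevenly. GD5.5 replicates 1 and 3 shared a slide with no GEN array of GD4.5. GD4.5 replicates 1 and 4 shared another with no GEN array of GD5.5. Each of these slides also held CON arrays of both days. The other 2 slides held 1 GEN array of each day and are called below the slides with both days.

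Between the days, 4402 of 20945 genes tested (21.0%) passed the test in GEN uteri (limma over all 29 arrays, Benjamini-Hochberg adjusted p under 0.05): 2590 were higher at GD5.5 (12.4%) and 1812 were lower (8.65%). Of these, 736 were at least 2-fold higher and 612 at least 2-fold lower, and 586 carry only clone or predicted-gene names. The median change over all genes tested was 0.09. All 4 GD5.5 arrays lay above all 4 GD4.5 arrays for 1431 of the 2590 genes called higher, and below them for 971 of the 1812 called lower. Over all genes tested, the arrays were separated in this way for 8.26% upward and 6.04% downward. The calls lean on the spread borrowed from the whole series. A fit of the 8 GEN arrays alone called 0 genes, and its lowest adjusted p was 0.0728 (limma). It had 4186 genes at an unadjusted p under 0.05, beside 7474 (35.7%) in the fit of all arrays. A fit of the 16 arrays of GD4.5 and GD5.5 called 1348 genes. The GD1.5 and GD3.5 arrays were on other slides and were scanned on other dates. With slide as a fixed block 943 genes were called, 653 higher and 290 lower; quantile normalization turned the balance to 2104 higher and 2328 lower, and normexp background correction gave 9602 higher and 1984 lower. Under normexp some dim genes described below as lower turned upward, namely Cd163, Cldn2, Gcnt3, Lgr5, Ocln, Pax8, Prg2, Ptch1 and Tnfrsf17; with normexp refitted without spots of high local background these stayed lower, by 0.52 to 0.97, less than in the values given below, and Prg2, Ptch1 and Tnfrsf17 were not called (adjusted p = 0.0623, 0.0753 and 0.0978). Without GD4.5 replicate 3 the count was 2923, without GD4.5 replicate 4 it was 2236, without GD5.5 replicate 1 it was 2156 and without GD5.5 replicate 4 it was 2781. In whole tissue, a change in the number of cells of a type cannot be told apart from a change in RNA per cell.

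**Figure D1:**
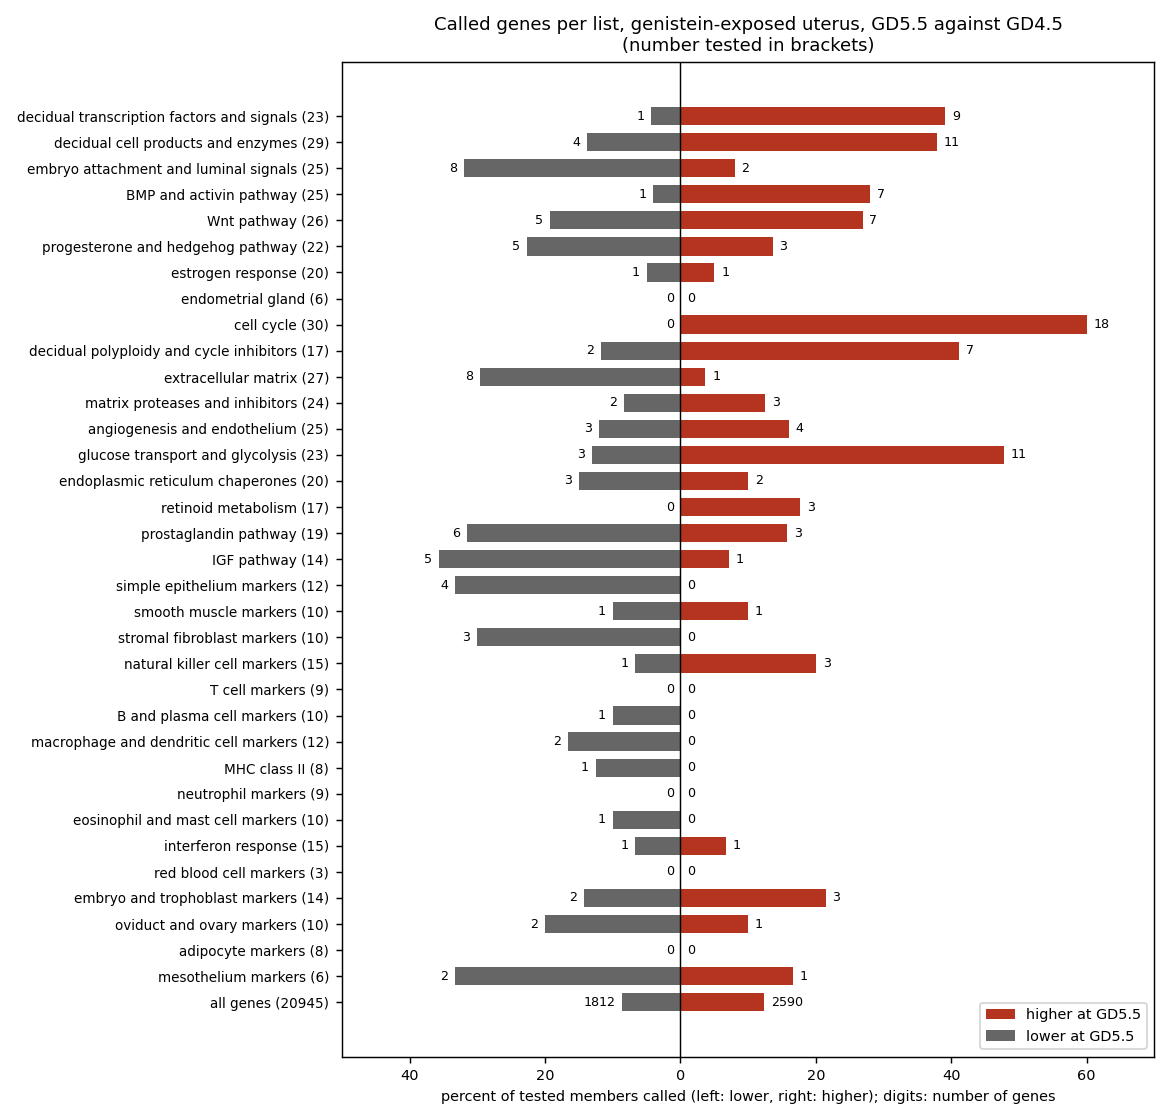
Share of the tested members of each gene list that were called lower (left) or higher (right) in GEN uteri at GD5.5 against GEN uteri at GD4.5, in percent, with all genes tested for scale. The cell cycle list has 18 of 30 members higher and none lower, the attachment list 2 higher and 8 lower of 25, against 12.4% higher and 8.65% lower of all genes.

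Several stromal decidualization signals, among them Bmp2, Bmp8a, Wnt4 and Wnt6, were higher in GEN uteri at GD5.5. Of 23 tested members of the list of decidual transcription factors and signals, 9 were higher at GD5.5 and 1 was lower, beside 12.4% and 8.65% of all genes, and the list's median change was 0.35. Bmp2, the BMP ligand that mouse stroma needs to decidualize, had 1.61, 0.81, -0.32 and 1.61 in GEN uteri at GD5.5, against -1.48, -0.42, -3.88 and -3.22 at GD4.5. All 4 later arrays were above all 4 earlier ones, and the change was 3.18 ± 0.54 (standard error, adjusted p = 0.000502). Bmp8a, a related BMP ligand, had 0.03, -0.40, -2.17 and 1.53 at GD5.5, against -4.58, -3.53, -5.06 and -3.88 at GD4.5. The days did not overlap for Bmp8a either, and the change was 4.01 ± 0.50 (adjusted p = 3.38e-05).

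Wnt4 and Wnt6, Wnt ligands of the decidualizing stroma, moved the same way. Wnt4 had 3.19, 2.36, 1.51 and 2.89 in GEN uteri at GD5.5, against 0.52, 0.73, -1.50 and -1.53 at GD4.5. Wnt6 had 3.99, 3.76, 3.46 and 5.21 at GD5.5, against 1.49, 1.24, -0.33 and -0.50 at GD4.5. For both ligands the days were separate, with GD4.5 replicates 1 and 2 above replicates 3 and 4, and the changes were 2.93 ± 0.45 and 3.63 ± 0.43 (adjusted p = 0.00023 and 2.21e-05). Wnt10a, another Wnt ligand, rose by 5.16 ± 0.59 (adjusted p = 1.9e-05) and was among the 12 largest rises. Across the Wnt list 7 of 26 members were higher and 5 lower, beside 12.4% and 8.65% of all genes, with a median of 0.02. Sfrp5, a secreted Wnt antagonist, rose by 4.04 ± 0.61 (adjusted p = 0.000171). Dkk1, another secreted antagonist, not well above background on any GD4.5 array, was at least 1.85-fold higher (adjusted p = 0.0132). Dkk1 is among the 7 called higher, but it passed the filter only through GD5.5 and so had to differ to be tested. Lgr5, a receptor for R-spondins that marks some epithelial cells, fell by 2.36 (SE 0.49, adjusted p = 0.00238), and its GD5.5 probe was well above background on 2 of 4 arrays. Wnt7a, a Wnt ligand of uterine epithelium, fell by 1.95 (SE 0.38, adjusted p = 0.00158).

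The BMP and activin list had 7 members higher and 1 lower of 25, beside 12.4% and 8.65% of all genes, median 0.21. Next to the ligands, Fst, which binds and blocks activins, rose by 2.12 ± 0.49 (adjusted p = 0.00533), and Smad6, an inhibitory SMAD induced by BMP signals, by 1.77 ± 0.38 (adjusted p = 0.00322). Inhba, the activin A subunit, Smad7 and Id3 were the other members called higher, and Smad1, a receptor-activated SMAD, was called lower by 0.42 (SE 0.11, adjusted p = 0.0121). Of the transcription factors, Hand2, a progesterone-regulated stromal factor, had 1.99, 1.57, 0.87 and 2.09 at GD5.5, against 0.79, 1.07, -0.0010 and -0.75 at GD4.5, a rise of 1.35 ± 0.31 (adjusted p = 0.00486) with overlapping arrays. Fosl1, an AP-1 subunit, rose by 2.45 ± 0.55 (adjusted p = 0.00417), and Cebpb, needed for stromal decidualization in mice, by 0.85 ± 0.27 (adjusted p = 0.0301). Foxo1, a forkhead factor of decidual stroma, fell by 0.51 (SE 0.12, adjusted p = 0.00457). Hoxa10, a homeobox factor of progesterone-responsive stroma, lay between 3.73 and 3.83 at GD5.5, against 3.46 to 3.97 at GD4.5 (adjusted p = 0.995), and Il11, a cytokine of early decidua, had a change of 2.14 ± 0.79 that missed the threshold (adjusted p = 0.0542). With slide as a fixed block, Bmp2, Bmp8a, Wnt4 and Wnt6 kept their calls out of the 10 of the decidual signal list. Cebpb and Il11ra1 lost theirs without GD4.5 replicate 3 or 4 or GD5.5 replicate 1 or 4 (adjusted p up to 0.193); in the BMP list Inhba, Smad1, Smad7 and Id3 lost theirs without GD5.5 replicate 1, and 3 of the list's calls were lost without each of GD4.5 replicate 3 and GD5.5 replicate 4 (adjusted p up to 0.157). In the Wnt list Dkk1, Fzd1, Fzd6 and Sfrp1 lost theirs without GD4.5 replicate 4 (up to 0.167).

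**Figure D2:**
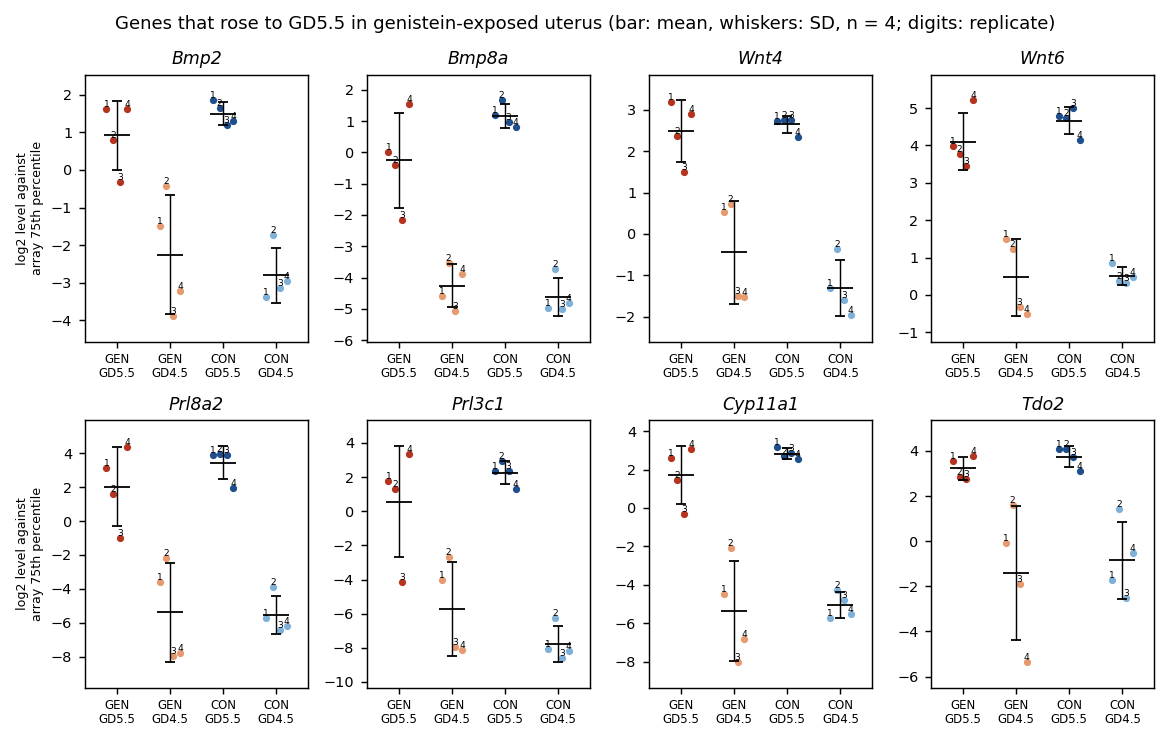
Log2 level relative to the array's 75th percentile for 8 decidual genes; points are single arrays marked by replicate number, bars are group mean ± SD (n = 4), in order GEN GD5.5, GEN GD4.5, CON GD5.5 and CON GD4.5. GEN GD4.5 replicates 1 and 2 sit above replicates 3 and 4 in most panels, and GEN GD5.5 replicate 3 is the lowest of its day.

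Several products of differentiated decidual cells rose by over 4 log2 units. Of 29 tested members of the decidual product list, 11 were higher and 4 lower, beside 12.4% and 8.65% of all genes, median 0.42. Prl8a2, decidual prolactin-related protein, had 3.15, 1.58, -1.02 and 4.37 in GEN uteri at GD5.5, against -3.59, -2.20, -7.95 and -7.76 at GD4.5, where 2 of 4 arrays were well above background. The days were separate and the change was 7.40 ± 1.04 (adjusted p = 0.000112). Prl3c1, a prolactin-like hormone made in the decidua, had 1.74, 1.29, -4.16 and 3.33 at GD5.5, against -4.05, -2.68, -7.96 and -8.11 at GD4.5, also well above background on 2 of 4 arrays there. GD5.5 replicate 3 lay below GD4.5 replicates 1 and 2, so the days overlapped, and the change was 6.25 ± 1.14 (adjusted p = 0.000993). Prl6a1, another prolactin family member of the decidua, rose by 4.05 ± 0.88 (adjusted p = 0.0035).

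The prolactin family forms a gene cluster. The probes of Prl8a2, Prl3c1, Prl6a1, Prl3d1, Prl3d2 and Prl8a9 lie on mouse chromosome 13 between 26465689 and 26923855 (build mm7, per the array design). Of 23 measured members 13 passed the filter, 2 of them (Prl8a9 and Prl7b1) only through GD5.5, the day on which they were higher. Of the 13, 7 were called higher, beside 12.4% of all genes, none lower and 6 not called, and the 2 that had to differ to be tested are among the 7: Prl8a2, Prl3c1, Prl6a1, Prl3d1, Prl3d2, Prl8a9 and Prl7b1. Prl3d1 and Prl3d2, placental lactogen genes of trophoblast giant cells, are near-identical copies whose probes may cross-hybridize, and they rose by 3.98 ± 0.63 and 5.60 ± 0.63 (adjusted p = 0.000295 and 1.7e-05). Prl8a9 and Prl7b1 were not well above background on any GD4.5 array; Prl8a9 was well above background on 3 of 4 GD5.5 arrays and at least 5.32-fold higher there (adjusted p = 0.00181), where a bound compares the GD5.5 mean with the lowest signal of a probe well above background, or the gene's own signal where that is higher, on the GD4.5 arrays. In all 7, GD5.5 replicate 3 had the lowest level of its day. The 150 bases before the transcription start of the 2 family members with a RefSeq entry whose level was followed above are shown because 7 genes of the cluster were called higher; capitals mark the CCAAT box, the cell cycle homology region described below and the TATA box (its letters being TATAAA), on either strand (RefSeq, build GRCm38.p6).
Prl3c1, chr13:27196510-27196659, plus strand: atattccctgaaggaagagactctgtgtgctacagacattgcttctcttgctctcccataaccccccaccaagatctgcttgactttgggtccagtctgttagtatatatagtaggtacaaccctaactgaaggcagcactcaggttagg
Prl6a1, chr13:27312465-27312614, plus strand: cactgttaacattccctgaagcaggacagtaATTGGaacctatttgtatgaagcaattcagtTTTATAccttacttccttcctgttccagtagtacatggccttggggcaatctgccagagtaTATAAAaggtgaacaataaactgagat

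Some enzymes and other products of the decidua were also higher, and 4 of the list were lower. Cyp11a1, the enzyme that turns cholesterol into pregnenolone, had 2.60, 1.48, -0.29 and 3.08 at GD5.5, against -4.51, -2.10, -8.00 and -6.83 at GD4.5, a rise of 7.08 ± 0.90 (adjusted p = 3.63e-05). The days were separate, and 2 of 4 GD4.5 arrays were well above background. Cyp11a1 is also on the list of oviduct and ovary markers, of whose 10 tested members it alone was called higher. Star, a cholesterol transfer protein, and Pax8, a factor of oviduct epithelium, were the 2 called lower, by 1.34 and 1.19 (adjusted p = 0.00622 and 0.00469), while Lhcgr and Oosp1 were not well above background on either day; the part of these tissues in the result was not tested. Tdo2, a tryptophan-degrading enzyme of decidual stroma, had 3.54, 2.85, 2.75 and 3.77 at GD5.5, against -0.07, 1.62, -1.88 and -5.34 at GD4.5, and rose by 4.64 ± 0.99 (adjusted p = 0.00299). Alpl, tissue alkaline phosphatase, a classical stain of mouse decidua, had 2.42, 1.94, 1.62 and 2.92 at GD5.5, against -0.08, 0.49, -0.75 and -0.80 at GD4.5, and rose by 2.51 ± 0.49 (adjusted p = 0.0016). Cited2, a transcriptional co-regulator, rose by 1.37 ± 0.20 (adjusted p = 0.000157), and Dio3, which inactivates thyroid hormone, by 3.19 ± 0.91 (adjusted p = 0.0166). In the same list Akr1b7, an aldo-keto reductase, fell by 2.58 (SE 0.66, adjusted p = 0.00963), with GD4.5 replicate 4 at 3.15 and the other GD4.5 arrays between -1.60 and -1.05. Htra3, a secreted serine protease, fell by 1.28 (SE 0.37, adjusted p = 0.0192). Cyp26a1, which degrades retinoic acid, fell short of the threshold (-1.14 ± 0.66, adjusted p = 0.221). Of the 15 called members, 9 kept their call with any 1 array left out. The others were lost as follows: 6 without GD5.5 replicate 1, 5 without GD4.5 replicate 3, 5 without GD4.5 replicate 4, 4 without GD5.5 replicate 4 and 1 without GD5.5 replicate 2 (adjusted p up to 0.195). Prl8a2, Prl3c1, Prl6a1, Slc2a1 and Cited2 stayed called with slide as a fixed block.

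Most genes of the cell cycle list were called higher at GD5.5. Of its DNA synthesis genes, Rrm2, Rrm1, Tyms, Mcm5 and Cdt1 were called, while Mcm2, Mcm3, Mcm4, Mcm6, Mcm7 and Pcna were not. All 30 tested members of the cell cycle list had positive changes, with a median of 1.05, and 18 were called higher, beside 12.4% of all genes. Rrm2, a subunit of ribonucleotide reductase, had 4.76, 4.30, 3.55 and 4.99 in GEN uteri at GD5.5, against 2.84, 3.51, 0.55 and -0.31 at GD4.5. The days did not overlap, though GD5.5 replicate 3 and GD4.5 replicate 2 were nearly level, and the change was 2.75 ± 0.62 (adjusted p = 0.00445). Ccnb1, cyclin B1, which drives entry into mitosis, had 1.98, 1.67, 1.21 and 1.78 at GD5.5, against 0.55, 0.98, -0.23 and -1.48 at GD4.5, a rise of 1.70 ± 0.41 (adjusted p = 0.00668). Plk1, a mitotic kinase, rose by 1.68 ± 0.36 (adjusted p = 0.00339), Birc5, a chromosomal passenger protein, by 1.51 ± 0.40 (adjusted p = 0.0111), Aurka, a spindle kinase, by 1.51 ± 0.38 (adjusted p = 0.0086), and Cdk1, the mitotic cyclin-dependent kinase, by 1.36 ± 0.37 (adjusted p = 0.0131). Mki67, the Ki-67 proliferation antigen, was at 0.73 ± 0.35 and missed the threshold (adjusted p = 0.134). The arrays of GD4.5 differed widely: the list's median lay 0.47, 0.82, -0.08 and -1.34 from the GD4.5 mean in replicates 1 to 4, against 1.26, 1.11, 0.66 and 1.33 at GD5.5. Of the 18 calls, 12 were lost without GD4.5 replicate 4, 9 without GD5.5 replicate 1, 7 without GD5.5 replicate 4, 6 without GD5.5 replicate 2 and 5 without GD4.5 replicate 3 (adjusted p up to 0.243), and 0 of 18 stayed called with slide as a fixed block (adjusted p 0.065 to 0.338). Without GD4.5 replicate 2, 29 of the 30 were called higher.

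Promoters of mitotic genes in mammals typically carry CCAAT boxes bound by NF-Y and a cell cycle homology region, TTTGAA. Within 250 bases before to 50 after the start, CCAAT on either strand stood in 13 of the 16 promoters in the RefSeq table among the 18 called genes (81.2%), in 7 of 9 of the tested and uncalled list members (77.8%) and in 41.1% of all promoters of the table. TTTGAA stood in 8 of the 16 (50.0%), in 3 of 9 uncalled (33.3%) and in 20.2% of all, and does not overlap CCAAT in its letters. A match describes these letters only. The 150 bases before the start of 4 called genes with both or several motifs are given, with capitals for the same 3 elements on either strand (RefSeq, build GRCm38.p6).
Cdk1, chr10:69352913-69353062, minus strand: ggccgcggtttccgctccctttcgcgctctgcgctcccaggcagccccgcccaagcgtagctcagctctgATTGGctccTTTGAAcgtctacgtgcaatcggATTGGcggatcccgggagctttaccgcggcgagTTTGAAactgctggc
Cdc20, chr4:118437344-118437493, minus strand: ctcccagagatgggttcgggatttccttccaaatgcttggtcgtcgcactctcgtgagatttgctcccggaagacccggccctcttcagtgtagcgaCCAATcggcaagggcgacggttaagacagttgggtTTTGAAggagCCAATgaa
Ccnb1, chr13:100786487-100786636, minus strand: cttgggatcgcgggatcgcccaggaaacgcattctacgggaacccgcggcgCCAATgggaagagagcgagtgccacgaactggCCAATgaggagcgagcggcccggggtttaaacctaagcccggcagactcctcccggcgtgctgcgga
Ccnb2, chr9:70421555-70421704, minus strand: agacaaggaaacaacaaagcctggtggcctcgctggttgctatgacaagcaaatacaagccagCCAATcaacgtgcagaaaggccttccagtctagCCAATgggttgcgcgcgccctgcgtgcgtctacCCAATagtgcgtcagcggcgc

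Decidual cells of the mouse leave the mitotic cycle and become polyploid, and several regulators of that switch rose. In this list of polyploidy genes and cycle inhibitors, 7 of 17 were higher and 2 lower, beside 12.4% and 8.65% of all genes, median 0.53. Cdkn1c, the cyclin-dependent kinase inhibitor p57, had 3.44, 3.83, 3.03 and 4.86 at GD5.5, against 2.24, 2.24, 2.80 and 2.53 at GD4.5, with separate days and a rise of 1.34 ± 0.28 (adjusted p = 0.0028). E2f8 and E2f7, atypical E2F repressors, rose by 2.23 ± 0.59 and 1.60 ± 0.38 (adjusted p = 0.0114 and 0.00573), and Ccnd3, the cyclin D of decidual cells, by 0.87 ± 0.18 (adjusted p = 0.00237), each with overlapping arrays. Ccnd2, cyclin D2, fell by 0.92 (SE 0.19, adjusted p = 0.00255). Cdkn1a, the inhibitor p21, was at 0.66 ± 0.30 and missed the threshold (adjusted p = 0.109). Only Cdkn1c of the 9 calls held with slide as a fixed block, and Cdk6, E2f8, Pttg1, Mdm2 and Rb1 lost theirs without some single array: 4 without GD4.5 replicate 4, 4 without GD5.5 replicate 4, 3 without GD4.5 replicate 3 and 3 without GD5.5 replicate 1 (adjusted p up to 0.161).

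**Figure D3:**
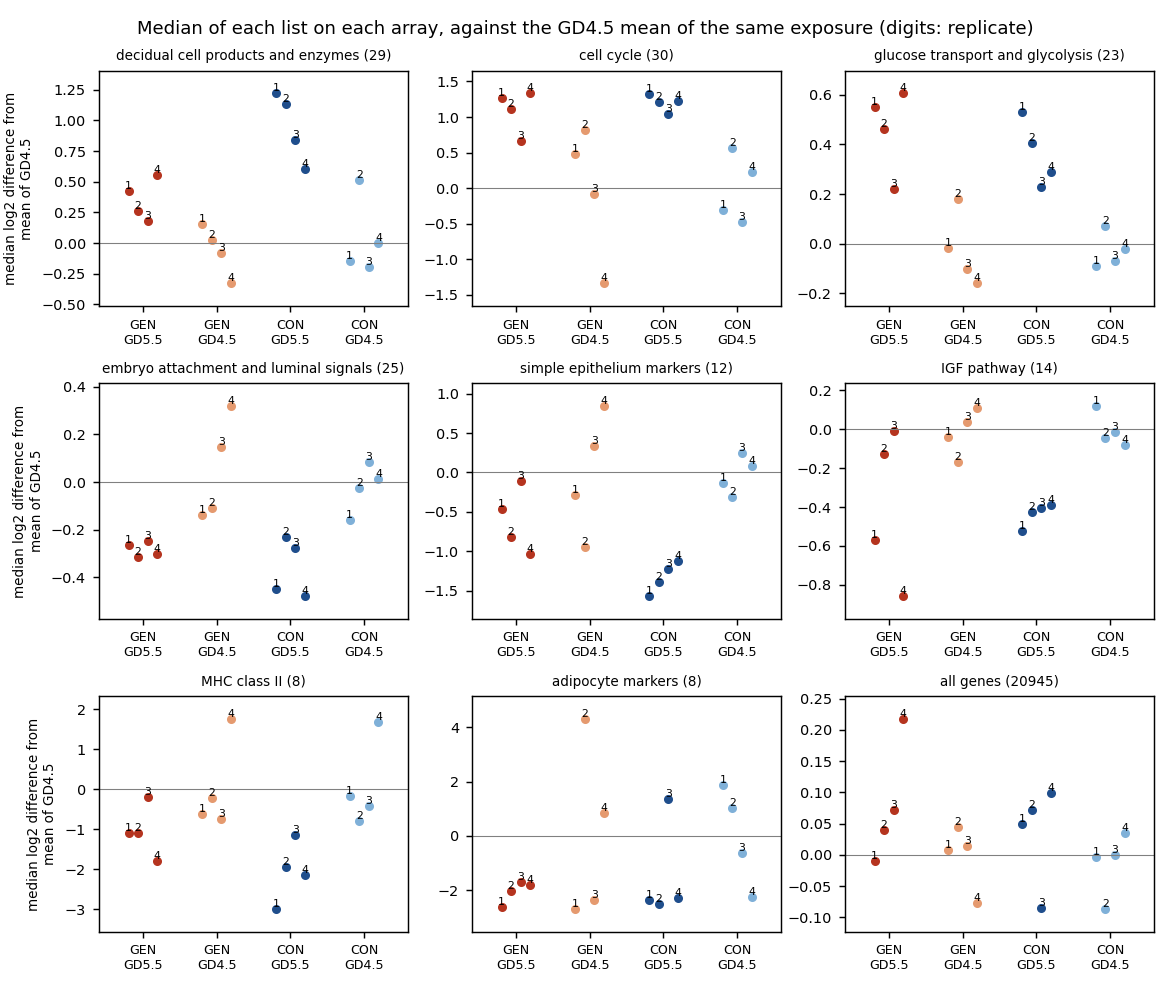
Median over the tested members of 9 gene lists of the log2 difference from the GD4.5 mean of the same exposure, for each of the 16 arrays of GD5.5 and GD4.5, GEN before CON. For cell cycle genes the GEN GD5.5 arrays lie between 0.66 and 1.33 and the GEN GD4.5 arrays between -1.34 and 0.82.

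Genes of glucose use were more often called higher than lower, while lists of endoplasmic reticulum and retinoid genes held calls at shares nearer those of all genes, 12.4% higher and 8.65% lower. Of 23 tested genes of glucose transport and glycolysis, 11 were higher and 3 lower, median 0.46. Slc2a1, the glucose transporter GLUT1, had 4.62, 4.27, 3.93 and 5.39 in GEN uteri at GD5.5, against 2.75, 2.48, 2.11 and 3.05 at GD4.5, with separate days and a rise of 1.95 ± 0.27 (adjusted p = 7.51e-05). Hk2, hexokinase 2, rose by 1.55 ± 0.37 (adjusted p = 0.0069), and Eno1, enolase 1, by 0.95 ± 0.20 (adjusted p = 0.00253). Hkdc1, a hexokinase-like enzyme, rose by 1.32 ± 0.39 (adjusted p = 0.0216) from low signal, and Pfkfb3, a regulator of glycolytic flux, fell by 0.92 (SE 0.27, adjusted p = 0.0212). In the endoplasmic reticulum list 2 of 20 were higher and 3 lower although the median was 0.36; the number higher was 9 without GD4.5 replicate 1 or GD4.5 replicate 2, 7 without CON GD4.5 replicate 2 and 4 without GD5.5 replicate 3. Pdia6, a protein disulfide isomerase, rose by 0.60 ± 0.16 (adjusted p = 0.0101), but other Pdia6 probes changed between -0.51 and 0.71. Herpud1, Dnajb9 and Ddit3, genes of the endoplasmic reticulum stress response, fell by 0.73, 0.70 and 0.57 (adjusted p = 0.000788, 0.000244 and 0.0247). Of 17 retinoid genes 3 were higher, none lower: Stra6, the retinol uptake receptor, had 0.65, 0.63, -0.24 and 0.83 at GD5.5, against -0.63, -0.85, -0.77 and -1.39 at GD4.5 (rise 1.37 ± 0.22, adjusted p = 0.000255), and the receptors Rara and Rxra rose by 1.02 ± 0.21 and 0.71 ± 0.17 (adjusted p = 0.00215 and 0.00666). All 3 held with slide as a fixed block and with any 1 array left out, and 5 were higher without GD4.5 replicate 1. With slide as a fixed block 4 of the 14 glucose calls held, Slc2a1 and Hkdc1 among them, and of the endoplasmic reticulum calls Dnajb9 and Herpud1. Hk1, Hkdc1, Pfkfb3, Pdk1 and G6pdx lost calls without some single array: 3 each without GD4.5 replicate 1, GD5.5 replicate 1 and GD5.5 replicate 4, 2 each without GD4.5 replicates 3 and 4, and 1 each without GD4.5 replicate 2 and GD5.5 replicate 2 (adjusted p up to 0.171). Hsp90b1 and Ddit3 lost theirs without GD4.5 replicate 3 or 4 or GD5.5 replicate 1 or 4 (up to 0.165).

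Called genes of attachment and of the luminal epithelium were mostly lower. Of 25 tested attachment genes, 8 were lower and 2 higher, beside 8.65% lower of all genes, median -0.50. Calb1, a calcium-binding protein of receptive uterine epithelium, had -2.73, -0.40, -0.95 and -3.69 in GEN uteri at GD5.5, against 0.56, -0.33, 2.77 and 3.65 at GD4.5. Replicate 2 of GD5.5 and replicate 2 of GD4.5 were nearly level, without overlap of the days, and the change was -3.61 ± 0.88 (adjusted p = 0.00719). Msx1, a homeobox factor of the receptive uterus that is switched off around implantation, had 0.21, -0.22, 0.18 and -0.63 at GD5.5, against 1.02, 0.44, 2.12 and 2.98 at GD4.5, a fall of 1.75 (SE 0.43, adjusted p = 0.00801). Lpar3, a lysophosphatidic acid receptor needed for on-time implantation and embryo spacing, had -5.26, -4.81, -4.02 and -5.89 at GD5.5, against -3.43, -4.27, -0.84 and -0.61 at GD4.5; the days overlapped and it fell by 2.71 (SE 0.75, adjusted p = 0.0149). Il6st, the gp130 receptor chain of LIF, fell by 1.03 (SE 0.16, adjusted p = 0.000277), and Erbb3, Btc, Ptgs1 and Lifr were also lower. Klf5, an epithelial factor needed for implantation, rose by 1.40 ± 0.27 (adjusted p = 0.00158) and Ptges, a prostaglandin E synthase, by 1.47 ± 0.30 (adjusted p = 0.00201). Hbegf, an attachment signal, was at 0.68 ± 0.29 (adjusted p = 0.0949), and Areg, an amphiregulin ligand induced by progesterone, at -0.76 ± 1.16 (adjusted p = 0.67). Btc, Erbb3, Lifr, Ptgs1 and Lpar3 lost their calls without GD4.5 replicate 4, 4 of them without each of GD4.5 replicate 3, GD5.5 replicate 1 and GD5.5 replicate 4, and 3 without GD5.5 replicate 2 (adjusted p up to 0.172). With slide as a fixed block 3 of the 10 calls held, Erbb3, Il6st and Klf5, so Calb1, Msx1 and Lpar3 lost theirs.

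**Figure D4:**
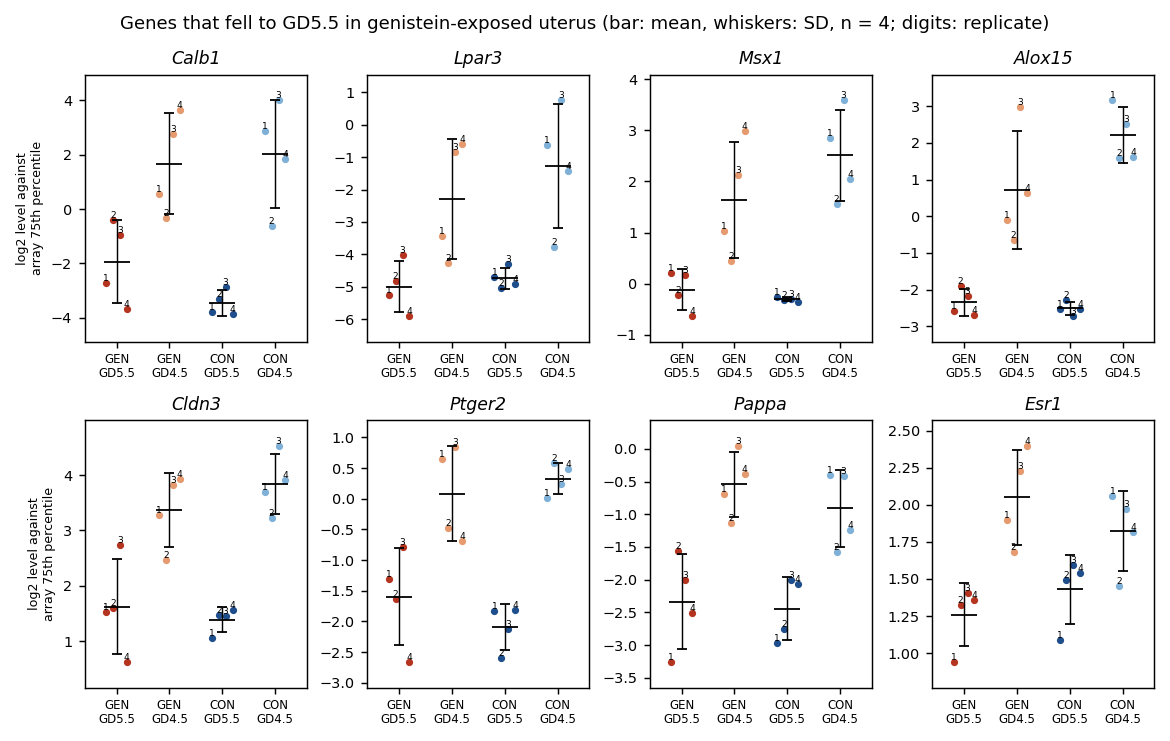
Log2 level relative to the array's 75th percentile for 8 genes that were lower at GD5.5; points are single arrays marked by replicate number, bars are group mean ± SD (n = 4), in order GEN GD5.5, GEN GD4.5, CON GD5.5 and CON GD4.5. Calb1, Lpar3 and Msx1 are lowest in GEN GD5.5 replicate 4, while Alox15 is highest in GEN GD4.5 replicate 3.

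Called prostaglandin receptors and most called IGF genes were lower. Of all genes tested, 12.4% were called higher and 8.65% lower, and the counts of both lists stand beside these shares. Of 19 prostaglandin genes 3 were higher and 6 lower, median -0.27 (0.16 with normexp), among them Ptger2, Ptger3 and Ptgfr, receptors for prostaglandins E and F, which fell by 1.68, 1.50 and 1.40 (adjusted p = 0.00759, 0.0111 and 0.0017). Ptgs2, the inducible cyclooxygenase of the implantation site, was at -2.64, -3.53, -5.89 and -4.21 at GD5.5, against -4.17, -4.86, -4.42 and -0.68 at GD4.5 (adjusted p = 0.658). GD4.5 replicate 4 was the highest array; the fitted change was 0.42 without it and 0.073 without GD5.5 replicate 3, so its direction rested on single arrays. In the IGF list 1 of 14 was higher and 5 lower, median -0.41: Pappa, a protease that frees IGF from its binding proteins, had -3.25, -1.56, -2.01 and -2.51 at GD5.5, against -0.68, -1.13, 0.04 and -0.39 at GD4.5, a fall of 1.79 (SE 0.34, adjusted p = 0.00136) with separate days. Igfbp5 and Irs1 fell by 1.06 and 0.97 (adjusted p = 0.0102 and 0.0174). Of the 6 IGF calls, 4 were lost without GD4.5 replicate 4 or GD5.5 replicate 1 (adjusted p up to 0.195), and of the 9 prostaglandin calls 4 without the same arrays (up to 0.206). With slide as a fixed block 2 of the 9 prostaglandin calls held, Ptger2 and Ptgfr, and of the IGF calls Igfbp7 alone.

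Called matrix genes were mostly lower. Of 27 extracellular matrix genes 8 were lower and 1 higher, median -0.37, and quantile normalization made this 14 lower and 1 higher. Col18a1, a basement membrane collagen, had 4.10, 4.71, 4.89 and 4.08 at GD5.5, against 5.42, 5.44, 5.65 and 4.97 at GD4.5, and fell by 0.92 (SE 0.20, adjusted p = 0.00335). Tnc, tenascin C, fell by 0.92 (SE 0.27, adjusted p = 0.0207), while Lama1, a laminin chain, rose by 1.72 ± 0.37 (adjusted p = 0.0034). Among matrix proteases and inhibitors 3 of 24 were higher and 2 lower, near the 12.4% and 8.65% of all genes, median -0.04 (0.02 with normexp), and without GD5.5 replicate 3 there were 5 lower. A2m, alpha-2-macroglobulin, a protease inhibitor of mouse decidua, rose by 1.82 ± 0.41 (adjusted p = 0.00465), Plaur, the urokinase receptor, by 1.62 ± 0.30 (adjusted p = 0.00121) and Adamts9, a metalloprotease, by 1.17 ± 0.23 (adjusted p = 0.00182). Of the 9 matrix calls, 7 were lost without GD5.5 replicate 1 and 4 each without GD4.5 replicate 3, GD4.5 replicate 4 and GD5.5 replicate 4 (adjusted p up to 0.167). Col18a1, Tnc and Lama1 held with slide as a fixed block.

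Progesterone and hedgehog genes had 3 of 22 members higher and 5 lower, median -0.20 (0.09 with normexp), beside 12.4% and 8.65% of all genes. Ptch1, a hedgehog receptor that is also a target of the pathway, fell by 1.35 (adjusted p = 0.0124), and Sox17, an epithelial factor of the progesterone pathway, by 1.12 (SE 0.28, adjusted p = 0.00754). Pgr, the progesterone receptor, had -0.80, -1.20, -1.62 and -0.88 at GD5.5, against -0.94, -1.03, -1.38 and -1.65 at GD4.5, and did not pass (0.13 ± 0.18, adjusted p = 0.64). Ihh, Indian hedgehog, an epithelial signal, was at -0.51 ± 0.53 (adjusted p = 0.515). In the estrogen response list 1 of 20 was higher and 1 lower, median 0.02, or -0.06 with quantile normalization. Esr1, the estrogen receptor alpha gene, had 0.94, 1.32, 1.40 and 1.36 at GD5.5, against 1.90, 1.68, 2.23 and 2.40 at GD4.5, with separate days and a fall of 0.79 (SE 0.17, adjusted p = 0.00357). Padi2, a peptidylarginine deiminase, rose by 1.76 ± 0.44 (adjusted p = 0.00897). Ltf, lactoferrin, the textbook estrogen-induced uterine protein, had 4.29, 3.43, 4.33 and 0.09 at GD5.5, against -0.995, -2.47, -1.58 and 6.82 at GD4.5, so GD4.5 replicate 4 was the highest of all and the change was not called (adjusted p = 0.17). None of 6 gland genes was called, with a median of -0.59 (0.51 with normexp); 1 was called lower without GD4.5 replicate 2 or without GD5.5 replicate 3. Foxa2, the factor that specifies uterine glands, had -1.87, -2.47, -0.89 and -1.84 at GD5.5, against -0.89, -1.49, -0.42 and -0.07 at GD4.5, and just missed the threshold (-1.05 ± 0.38, adjusted p = 0.0511). Fkbp4, Ncoa1, Ncoa3, Ptch1 and Acod1 lost their calls without GD4.5 replicate 3, 3 of them without GD5.5 replicate 4 (adjusted p up to 0.2), and with slide as a fixed block Ptch1 alone of the list's 8 calls held.

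Vascular genes were called at shares near those of all genes. Of 25, 4 were higher and 3 lower, beside 12.4% and 8.65% of all genes, median -0.03, and with the mean over a gene's probes 5 were higher and 0 lower, median 0.14: Apln, the vessel-growth peptide apelin, rose by 1.47 ± 0.29 (adjusted p = 0.0016), Epas1, the hypoxia factor HIF-2 alpha, by 1.28 ± 0.37 (adjusted p = 0.0185) and Angpt2, angiopoietin 2, by 0.78 ± 0.20 (adjusted p = 0.00916). Tek, the angiopoietin receptor, fell by 0.70 (SE 0.17, adjusted p = 0.00748), but its other probe changed by 0.20. Vegfa, Epas1, Flt4 and Nrp2 lost their calls without GD5.5 replicate 1 or GD5.5 replicate 4 (adjusted p up to 0.197), and the sign of the list's median turned to 0.03 with slide as a fixed block and 0.06 with normexp. Apln alone stayed called with slide as a fixed block.

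Few immune markers were called, beside 12.4% higher and 8.65% lower of all genes, and GD4.5 replicate 4 stood out. The median of its MHC class II genes lay 1.75 above the GD4.5 mean, against -1.80 to -0.20 at GD5.5 and -0.74 to -0.23 for the other GD4.5 replicates. Of 8 MHC class II genes 1 was lower, of 12 macrophage and dendritic cell markers 2 were lower (Cd163 and Mrc1, by 1.79 and 0.67, adjusted p = 0.00636 and 0.0239), of 15 natural killer markers 3 were higher and 1 lower, and none of 9 T cell or of 9 neutrophil markers was called. Among the natural killer markers Gzmd and Gzmc, granzymes of uterine natural killer cells, rose by 2.53 ± 0.74 and 1.93 ± 0.62 (adjusted p = 0.0197 and 0.0312) and Prf1, perforin, by 1.43 ± 0.42 (adjusted p = 0.0189). Granzyme genes are near-identical neighbours and may share signal. Their days overlapped, and on the slide that holds GD5.5 replicate 4 and GD4.5 replicate 3 the differences were -0.21 for Gzmd, -0.29 for Gzmc and -0.14 for Prf1. Each of these calls was lost without GD4.5 replicate 1, GD4.5 replicate 4, GD5.5 replicate 1 or GD5.5 replicate 2 (adjusted p up to 0.156). Xcl1 was the natural killer marker called lower, by 0.99 (adjusted p = 0.0164, limma). It alone of the list's calls held with slide as a fixed block, and it lost its call without GD5.5 replicate 4. Jchain, the immunoglobulin joining chain of plasma cells, fell by 2.51 (SE 0.84, adjusted p = 0.0366), as did H2-Oa and Prg2, and each of those lost its call without GD4.5 replicate 4 or GD5.5 replicate 1 (adjusted p up to 0.151). Of 10 tested B and plasma cell markers Jchain alone was called. The list's median change was -1.38, or -1.08 and 0.06 within the 2 slides with both days, and GD4.5 replicate 4 lay 1.58 above its day's mean. Summed B and plasma cell marker levels were 1.48 to 5.82 at GD5.5 and 7.80 to 51.9 at GD4.5 (relative to the array's 75th percentile, which equals 1). Macrophage sums were 36.6 to 95.5 and 70.3 to 220. The part of these cells in the results was not tested.

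Epithelial and other cell type markers were as follows, with 12.4% higher and 8.65% lower of all genes for scale. Of 12 simple epithelium markers 4 were lower and none higher, median -0.42, which was -0.15 without GD4.5 replicate 4 and -0.73 without GD4.5 replicate 2; within the 2 slides that held both days it was 0.14 and -1.43: Cldn3 and Cldn7, claudins of tight junctions, fell by 1.74 and 1.71 (adjusted p = 0.00191 and 0.00336), Ocln, occludin, by 1.34 (adjusted p = 0.00802) and Krt8, keratin 8, by 1.10 (adjusted p = 0.0348). Their days overlapped, and the summed epithelial level was 65.1 to 109 at GD5.5 and 59.4 to 259 at GD4.5. Krt8 lost its call without GD4.5 replicate 3 or 4 or GD5.5 replicate 1, 2 or 4 (adjusted p up to 0.175). Stromal markers had 3 lower of 10, with Dcn, decorin, Pdgfrb and Col3a1 falling by 0.56, 0.47 and 0.45, and each was lost without GD5.5 replicate 1 (adjusted p up to 0.167). In smooth muscle, 1 of 10 rose (Des, desmin, also a decidual protein, 0.93 ± 0.18, adjusted p = 0.00147) and 1 fell (Synpo2). Of 14 tested embryo and trophoblast markers 3 were higher, Prl3d1, Rhox5 and Gata3, and 2 lower, Sox7 and Gata6, while Cdx2, Hand1, Nanog, Sox2 and Dppa3 were not well above background on either day. Gata3, a trophoblast and immune factor, had 1.01, 0.53, -0.28 and 1.56 at GD5.5, against -1.34, -0.91, -1.82 and -0.90 at GD4.5, and rose by 1.95 ± 0.28 (adjusted p = 0.000114). Adipocyte marker sums ran from 2.06 to 4.32 at GD5.5 and from 1.91 to 139 at GD4.5, where replicate 2 was high, and none of the 8 was called (median -1.88). The remaining lists held few calls: 1 higher (Irf7) and 1 lower (Gbp2) of 15 interferon genes, 1 lower of 10 eosinophil and mast cell markers, 0 of 3 red blood cell markers, and 1 higher and 2 lower of 6 mesothelium markers. Irf7 and Gbp2 lost their calls without GD5.5 replicate 4 (adjusted p up to 0.163). Wt1, a mesothelial and stromal factor, rose by 1.13 ± 0.23 (adjusted p = 0.00202).

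Beside Prl8a2 and Cyp11a1, several genes outside the lists were among the largest changes with separate arrays. Aass, a lysine-degrading enzyme, had 2.37, 0.97, 0.38 and 3.05 at GD5.5, against -3.26, -1.73, -3.63 and -4.64 at GD4.5 (rise 5.00 ± 0.49, adjusted p = 2.78e-06). Drd4, a dopamine receptor, rose by 5.69 ± 0.69 (adjusted p = 2.63e-05), Sct, the hormone secretin, by 5.40 ± 0.85 (adjusted p = 0.000276), Plekhg4 by 5.54 ± 0.89 (adjusted p = 0.000328), Slc30a2, a zinc transporter, by 5.21 ± 0.81 (adjusted p = 0.000244) and Muc13, a mucin, by 4.44 ± 0.82 (adjusted p = 0.00112). Tmem14c, a mitochondrial porphyrin transporter, rose by 4.93 ± 1.35 (adjusted p = 0.0139), and lost its call without GD5.5 replicate 1 (adjusted p = 0.0621). Among the falls, Alox15, a lipoxygenase of receptive luminal epithelium, had -2.59, -1.91, -2.17 and -2.69 at GD5.5, against -0.11, -0.66, 2.98 and 0.64 at GD4.5 (-3.06 ± 0.53, adjusted p = 0.00063). Krt12, a keratin, fell by 4.21 (adjusted p = 0.00334), Hdc, histidine decarboxylase, by 2.60 (adjusted p = 0.00152), Cldn2, a claudin, by 2.93 (adjusted p = 0.000885) and Ap3b2 by 3.29 (adjusted p = 3.63e-05). Serpina1b and Serpina1d, near-identical alpha-1-antitrypsin genes, fell by 2.75 and 2.66 with GD4.5 replicate 4 highest. Well above background on some arrays only were Prl3d2 and Muc13 (2 of 4 at GD4.5), Krt12 and Tnfrsf17 (2 of 4 at GD5.5) and Cldn2 (1 of 4 at GD5.5). Iglv1 and Tnfrsf17, plasma cell genes, were highest in the same array and lost their calls without it or without GD5.5 replicate 4 (adjusted p up to 0.185). Fam162b was at least 10.2-fold higher (adjusted p = 0.000624), Hsd3b2, a steroid dehydrogenase, at least 5.68-fold (adjusted p = 0.000602, though its other probe changed by -0.10) and Baat, a bile acid conjugating enzyme, at least 4.05-fold (adjusted p = 0.00014), none well above background at GD4.5. Fam162b, Hsd3b2 and Baat passed the filter only through GD5.5, the day on which they were higher, so they had to differ to be tested. Gcnt3, a mucin glycosyltransferase, was at least 2.98-fold lower and not above background at GD5.5 (adjusted p = 0.00117). It passed the filter only through GD4.5, so the same limit applies to it.

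The same day change in CON uteri called 6515 of 21680 genes (30.1%), 3470 higher and 3045 lower, with 39.6% at an unadjusted p under 0.05. Of 20707 genes tested in both, 1882 were called higher in both (72.9% of the GEN calls and 54.6% of the CON calls) and 1351 lower in both (75.2% and 44.9%). A further 4 were called higher in GEN and lower in CON, and 1 the other way. The day change shared no array between exposures. Among 982 genes at least 2-fold higher in CON uteri, the median change was 1.08 in GEN uteri and 1.44 in CON uteri, and 884 changed less in GEN; among 1369 at least 2-fold lower, it was -0.94 in GEN and -1.46 in CON, and 1283 changed less in GEN. These genes were chosen for a large CON change, which alone favours a smaller GEN value. Chosen instead for a called change of at least 2-fold in GEN uteri, 728 genes had a median of 1.37 in GEN and 1.44 in CON uteri, with 415 smaller in GEN, and 601 had -1.32 in GEN and -1.48 in CON, with 370 smaller in GEN. The difference itself, GEN minus CON, was called for 1 of 22549 genes (0.00443%; limma), with 1620 (7.18%) at an unadjusted p under 0.05. Its median standard error was 0.330.

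**Figure D5:**
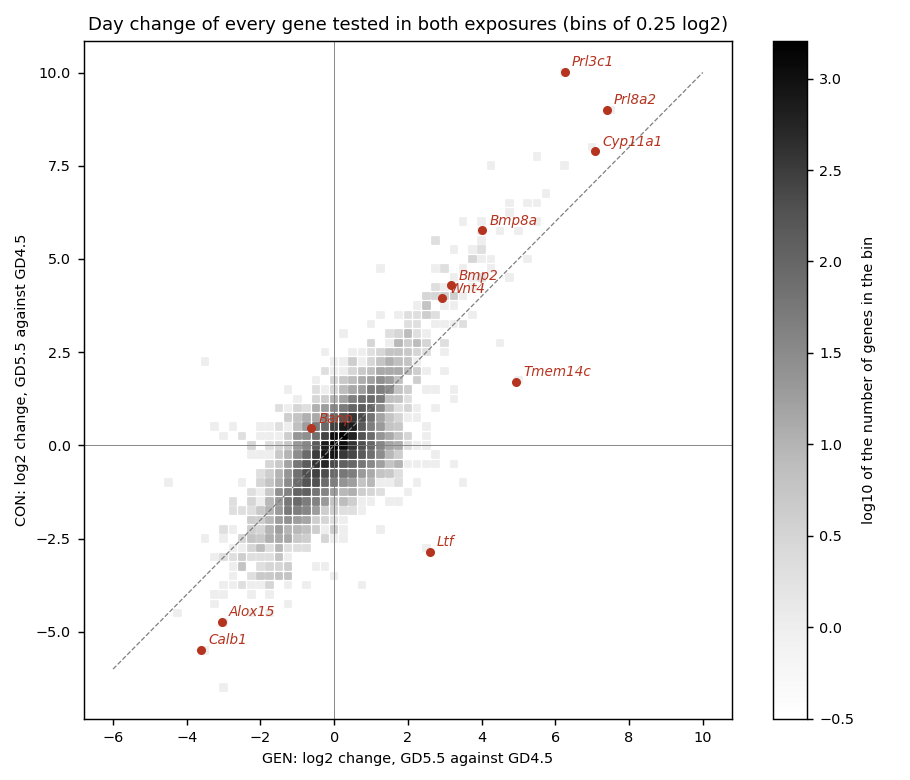
Day change at GD5.5 against GD4.5 in GEN uteri (x axis, log2) and in CON uteri (y axis, log2) for genes tested in both, shaded by the number of genes in squares of 0.25 log2, with some genes named. Prl3c1 lies above the diagonal at 6.25 in GEN and 10.03 in CON, Tmem14c below it at 4.93 and 1.71, and Banp has a negative GEN and a positive CON change.

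The single call was Banp, a nuclear matrix-associated DNA-binding protein, which had 1.59, 1.52, 1.43 and 1.66 in GEN uteri at GD5.5 against 2.52, 2.12, 2.13 and 1.90 at GD4.5, and 1.98, 1.94, 1.84 and 1.93 in CON uteri at GD5.5 against 1.58, 1.43, 1.45 and 1.39 at GD4.5. It fell in GEN (-0.62 ± 0.11, adjusted p = 0.00105) and rose in CON (0.46 ± 0.11, adjusted p = 0.00383), and the difference of -1.08 (95% interval -1.41 to -0.74) had an adjusted p of 0.0173. Prl3c1 rose by 6.25 in GEN uteri and 10.03 in CON uteri, a difference of -3.78 (95% interval -7.12 to -0.43, adjusted p = 0.649). The difference was -1.58 for Gata3 (95% interval -2.39 to -0.78, adjusted p = 0.411) and -1.77 for Bmp8a (95% interval -3.23 to -0.30, adjusted p = 0.635). It was -1.04 for Slc2a1 (95% interval -1.82 to -0.26, adjusted p = 0.599) and 5.45 for Ltf (95% interval 1.50 to 9.39, adjusted p = 0.588). The intervals are for single genes, not adjusted for the number of genes tested, and apart from Banp none of these differences was called. For Bmp2 the interval was -2.69 to 0.44, for Wnt4 -2.34 to 0.30, for Prl8a2 -4.66 to 1.45 and for Ccnb1 -0.97 to 1.42, so neither equal changes nor differences within these limits could be told apart. With median scaling, slide as a fixed block, its own 16 arrays, or without GD5.5 replicate 3 or any of CON GD4.5 replicates 3 and 4 and CON GD5.5 replicates 1, 2 and 4, the difference was called for 0 genes (986 to 1864 at an unadjusted p under 0.05, limma), so Banp lost its call. Without GD5.5 replicate 4 the difference was called for 52 genes, 15 of them positive and 37 negative.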

How the data were processed

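Total RNA (RNeasy with DNase on the column; 500 ng input, Cy3 cRNA) of each sample was hybridised to a 1-colour Agilent mouse array, per the labels' protocols. The deposited intensity values are the scanner's background-subtracted processed signals, made with Agilent Feature Extraction 9.5 per the file headers and the submitters' processing notes; probe positions are those of the array design (mm7, per the file headers). From these, log2 signal minus the array's 75th percentile was computed for non-control spots, spots marked as outliers were left out, spots of a probe were averaged and the brightest probe stood for a gene. A gene was tested where 3 or more of the arrays compared had it well above background, with limma 3.58.1 (R 4.3.3, statmod 1.5.0) on 8 group means over all 29 arrays; genes with a Benjamini-Hochberg adjusted p under 0.05 are called. The test was checked on simulated data with independent noise and no slide or array effects, so that check does not cover such effects. All samples were grouped by their titles.

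The members, gene lists and named genes were chosen with earlier results of these data known. Named genes are the 12 largest rises and 12 largest falls with separate arrays, up to 5 each way known only by a bound, up to 8 genes called for a difference of the day change, up to 4 called members of a list with the largest change, and 22 key genes, of which 21 were measured. Other genes given in the text are list members described after their values were seen, among them those named for counts of 5 or fewer. Of 7 promoter motifs searched, 3 are described. Replicate numbers did not pair the GEN samples: same-numbered arrays of the days correlated at 0.29, 0.03, -0.14 and -0.31 after removal of the group means. Alternatives covered background correction, scaling, filters, probe choice, slide and replicate blocks, smaller fits, array weights, and leaving out each array. The refit of normexp without spots of high local background and the fit on slides with both days were chosen after seeing the data.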

Additional observations from a re-analysis of the deposited data

Results flagged for a closer look

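In 14 of 270 groups of 4 arrays checked over the 135 named genes, 1 array lay apart from the other 3 by Dixon's test at the 95% level; chance alone flags about 1 in 20 groups. Replicate 4 of GEN GD4.5 was the high array for Cdk6 (2.63, others up to 0.95), Gbp2 (2.49, others up to 1.64), Ltf (6.82, others up to -0.995), Prg2 (-1.57, others up to -3.07), Ptgs2 (-0.68, others up to -4.17) and Tnfrsf17 (-0.83, others up to -3.52). Replicate 3 of GEN GD4.5 was the high array for Angpt2 (1.03), Cldn1 (-3.73) and Tek (-0.79). Replicate 2 of GEN GD4.5 was high for Cd163 (-1.82) and low for Synpo2 (2.35), and replicate 1 was high for Herpud1 (3.77). At GEN GD5.5, replicate 2 was high for Gcnt3 (-6.51), on a day when that probe was not well above background, and replicate 3 was low for Plk1 (3.80).

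Banp was the gene whose day change differed between exposures by the test of the difference itself: -1.08 (GEN minus CON, adjusted p = 0.0173, limma), with all 4 GEN arrays lower at GD5.5 than the GD4.5 arrays and all 4 CON arrays higher.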

How the results depend on the processing

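All 4402 calls of the GEN day change kept their direction under each scaling, filter, block, smaller fit and leave-one-out fit run. Direction was kept by 3848 with normexp, 4386 with normexp refitted without spots of high local background and 4331 with the mean over a gene's probes. Filters, the fits of 8 or 16 arrays, the replicate block and the variance trend leave a change the same or nearly so. Median scaling shifts all genes alike by a small amount, so these settings could hardly turn a direction. The GEN count was 11586 with normexp (5th percentile intensity 319, 540 and 249 in GD5.5 replicates 1 to 3, against 62.7 in replicate 4), 943 with slide as a fixed block, 0 in the fit of the 8 arrays alone (4186 at an unadjusted p under 0.05, limma) and 0 on slides with both days (2177), 1348 in the fit of 16 arrays, 1342 with array weights, 1348 at 2-fold or more, and 2156 to 5618 with 1 array left out. Replicate as a block gave 4827 (2870 higher, 1957 lower), and the numbers do not pair the samples. The CON count was 4331 on its own arrays, 4326 on 16 arrays and 2411 at 2-fold or more. The difference of the day change was called for 38 genes with normexp, 2 with refitted normexp, 4 with quantile normalization, 3 with the stricter background filter, 3 with the replicate block and 3 with a variance trend and robust fit; it was called for 0 with median scaling, slide as a fixed block, its own arrays or 16 arrays (1713, 1864, 986 and 986 at an unadjusted p under 0.05, limma), and for 0 to 52 with 1 array left out. Causes were not tested.

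Named genes that turned with normexp were Areg 0.71, Cd163 0.13, Cd209d 0.26, Cldn1 1.27, Cldn2 0.50, Gcnt3 0.59, Lgr5 0.35, Npy1r 1.13, Ocln 0.19, Pax8 0.37, Prg2 0.22, Ptch1 0.64, Ptgs2 0.69, Rbm20 1.02, Slfn9 1.15, Tnfrsf17 0.24 and Hoxa10 -0.24. Hoxa10, 0.0013 as reported, was also -0.17 with quantile normalization, -0.0025 with median scaling, -0.034 and -0.0055 with slide as a fixed or random block, -0.052 with array weights, -0.064 on slides with both days and -0.11 to 0.065 with 1 array left out. Pgr was -0.0036 with slide as a fixed block, -0.021 with array weights and -0.0053 (without GD4.5 replicate 4) to 0.29 with 1 array left out. Ptgs2 was 0.77 on slides with both days, 0.42 without GD4.5 replicate 4, 0.073 without GD5.5 replicate 3 and as low as -1.01 without GD5.5 replicate 1. With slide as a fixed block 55 of the 124 called named genes stayed called.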
